A study of Salmo trutta with 8 samples.

Results

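A group of 101 array probes was brighter in the channel labelled sLh than in the channel labelled control in every replicate of brown trout preovulatory follicles, of 18068 probes tested and 21754 on the array (0.559% of the probes tested). They were chosen by the ratio itself: a member had a log2 ratio of sLh over control above the log2 of 1.8 (0.85) in each of 3 replicates, which were female 1, female 2, and females 3 and 4 averaged. The ratios below are therefore a description of the probes that the rule picked, and no test of them is given. Only probes whose sLh channel was well above background on 4 or more of the 8 arrays entered the choice.

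The follicles were an oocyte with its granulosa and theca layers, taken from preovulatory brown trout (Salmo trutta) females and incubated for 18 h at 15 °C without hormone (control) or with salmon luteinizing hormone (sLh). The labels and the paper name brown trout, whereas the deposited description of the design names brook trout. RNA of both treatments of a female was hybridised together on 2 dual-colour arrays with the dyes swapped, which gave 8 arrays for the 4 females named in the labels. Whole follicles were used, so that a change in the number of cells of a type and a change in RNA per cell cannot be told apart.

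Luteinizing hormone is the pituitary hormone that triggers the final events of the ovarian cycle in vertebrates. It acts through a G protein-coupled receptor on the follicle cells, in which it raises cyclic AMP, switches steroid production towards the hormone that matures the oocyte, and changes the expression of many genes. Ovulation follows when the follicle wall is weakened by proteases and contracts, so that the oocyte leaves its follicle layers. Which of these roles, if any, the members have is not known here, because the files used here give each probe a probe name and a systematic name but no gene, and 0 of the 21754 probe names and 0 of the systematic names occur in the RefSeq gene table at hand (61581 genes). The defining genes of granulosa, theca, oocyte and blood cells could not be looked up for the same reason, and neither could the probe sequences be printed. Members are therefore called by their rank, from the highest to the lowest of their smallest replicate ratio.

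The direction follows the dyes in the labels. The authors also deposited a list of 788 selected probes with a value per array, and its sign was the opposite: 776 of the 776 listed probes that were tested here had a mean of the other sign in the list. The list held 58 of the 101 members (57.4% of the members and 7.36% of the list), against 776 of the 18068 probes tested. All 58 had a mean below 0 there. The authors selected the list from the same arrays, so its overlap with the members, here and below, is a description only. If the sign of the list were the right one, every member described here would be lower with sLh, with ratios of the same size. Higher in the following means brighter in the channel labelled sLh.

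Females 3 and 4 were counted as 1 replicate. Over all probes tested, their ratios correlated across probes with r = 0.985 and differed with a robust SD of 0.0875, against r from -0.03 to 0.15 and SDs from 0.593 to 0.838 for the other 5 pairs of females. The noise estimated from the dye-swapped arrays, which includes the dye effect, had an SD of 0.410. Among the members, the median difference between females 3 and 4 was 0.0917, against 0.605 to 0.674 for the other pairs. Females 3 and 4 thus gave nearly the same values for the members, and n = 3 is used throughout, although the labels name 4 females. Each of the 2 slides held the 4 arrays of 1 dye orientation, with all 4 females on it.

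The members were a small part of what was higher in any replicate. Female 1 had 1329 tested probes above the threshold, female 2 had 1275 and females 3 and 4 had 1828, of which the members were 7.60%, 7.92% and 5.53%. Most probes above the threshold in a pair of replicates were not above it in the remaining one. Of the 291 probes above it in females 1 and 2, 134 lay between the thresholds in females 3 and 4 and 56 were past it in the opposite direction. The corresponding numbers were 136 and 45 of 282 for female 2, and 206 and 46 of 353 for female 1. The members are what is left when all replicates are asked for.

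Within the members the ratios ranged widely. The median log2 ratio of the members was 1.56 in female 1 (range 0.85 to 8.85), 1.90 in female 2 (0.87 to 7.63) and 1.60 in females 3 and 4 (0.88 to 6.0). The median log2 ratio of all probes tested was 0.04, -0.05 and 0.13, so the arrays were centred close to 0. The mean log2 ratio over the 3 replicates had a median of 1.78 over the members (3.42-fold) and ranged from 0.87 to 7.48. The smallest of the 3 ratios was above 1 in 69 members, above 2 in 9, above 3 in 4 and above 5 in 2. A few members thus stood far above the remainder, and most lay within a few units of the threshold.

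**Figure D1:**
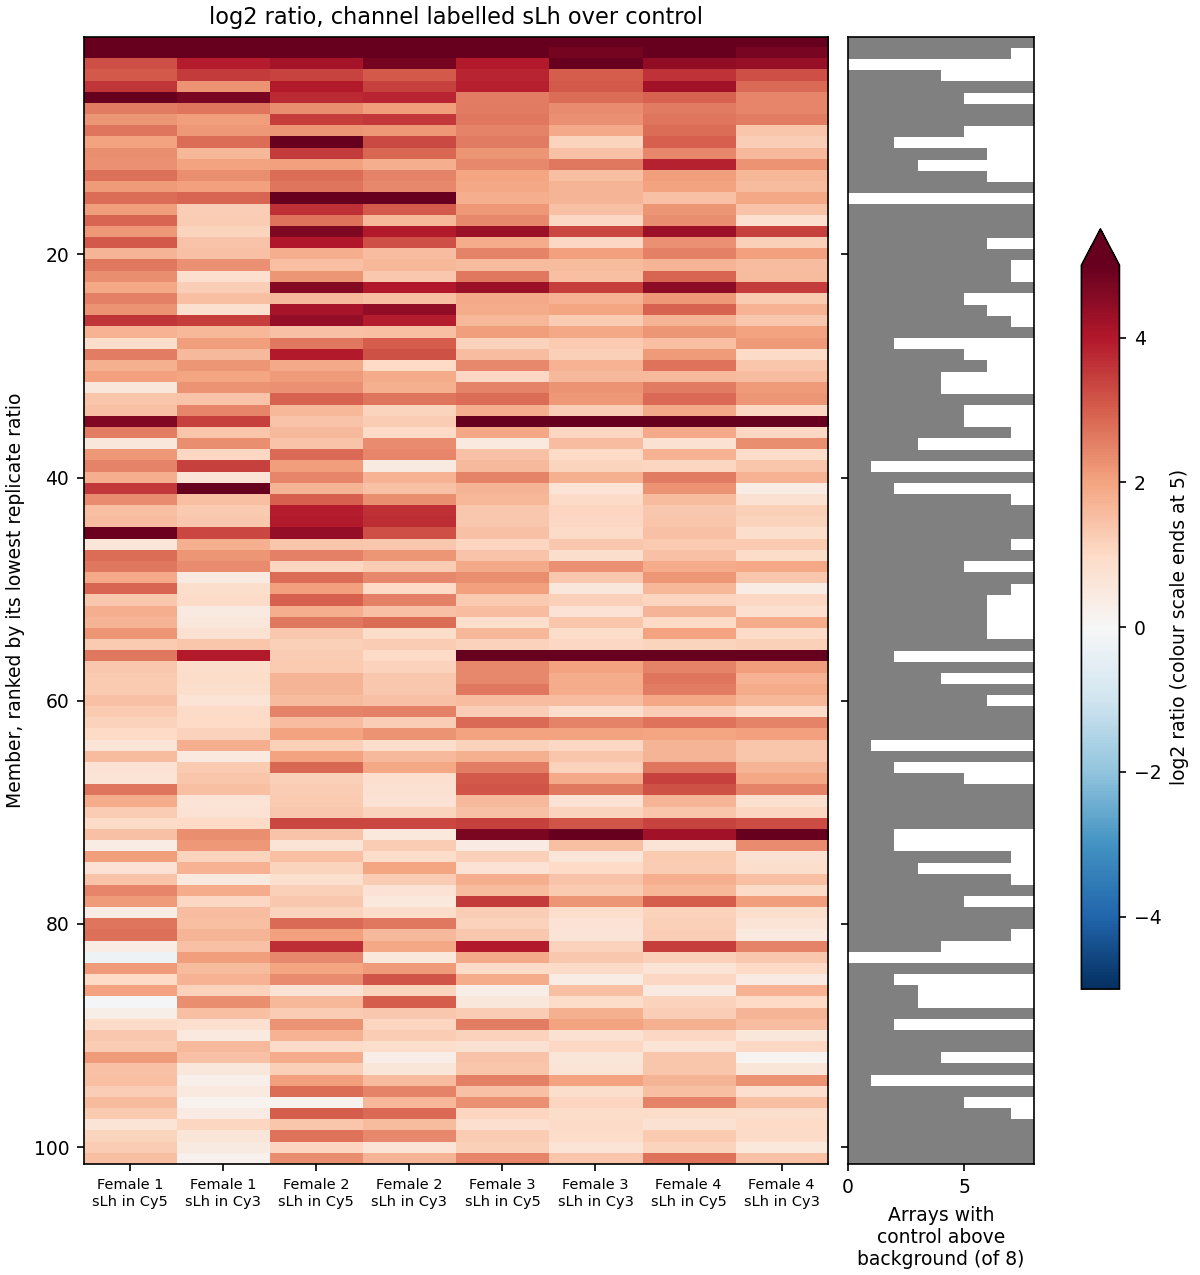
Log2 ratio (sLh label over control label) for the 101 members (rows, by rank) on each of the 8 arrays (columns, by female and dye of sLh), with the number of arrays on which the control channel was above background as bars at the right. Of the 808 values, 2 lie at or below 0, and the rows differ in which female is darkest.

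The replicate ratios that chose the members are means of the single arrays, so most single ratios had to be high. The values on single arrays are a description only. Of the 808 ratios of the members on single arrays, 717 were above the threshold and 2 were at or below 0. All 8 arrays were above 0 in 99 members and above the threshold in 48. The values below 0 were -0.10 for the member ranked 87 and -0.26 for the member ranked 83, each on an array of female 1 with sLh in Cy5. Both members had their control channel above background on few or no arrays.

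The member with the highest ratios was CUST_13583_PI425320672 (systematic name Omy#S34424701). Its processed signal in the sLh channel was 43490 and 90353 on the arrays of female 1 and 14575 and 10100 on those of female 2. It was 64593 and 102781 for female 3 and 66336 and 104513 for female 4, always with sLh in Cy5 named first. Its signal in the control channel was 95.1 and 195, 58.7 and 64.1, 1124 and 1870, and 865 and 1601 in the same order. The control channel of CUST_13583_PI425320672 was low in females 1 and 2 and higher in females 3 and 4, while the lowest sLh signal stood above the highest control signal. Its 3 replicate log2 ratios were 8.85 (female 1), 7.63 (female 2) and 5.98 (females 3 and 4), with a mean of 7.48 ± 1.44 (SD, n = 3; 179-fold). It was the only member with saturated spots of sLh, which occurred on 6 arrays and make the ratio there a lower limit.

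The second member, CUST_11293_PI425320672 (systematic name Omy#S22923526), had the same order of females in its measured ratios, an order that saturation leaves uncertain for the first. Its sLh signal was 20142 and 18919 (female 1), 6843 and 6005 (female 2), 15326 and 14353 (female 3) and 14975 and 13257 (female 4). Its control signal was 48.7 and 111, 71.4 and 106.9, 389 and 521, and 344 and 491. The ranges of the channels did not overlap for CUST_11293_PI425320672 either, and its control channel was above background on 7 arrays. Its log2 ratio was 8.05, 6.20 and 5.07 in the 3 replicates (mean 6.44 ± 1.51, SD, n = 3; 86.8-fold). The measured ratio of both probes was lowest in the replicate whose control signal was highest. The control signal is part of the ratio, and the signals given are not centred on their arrays. Whether the control level bears on the order of females was not tested.

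**Figure D2:**
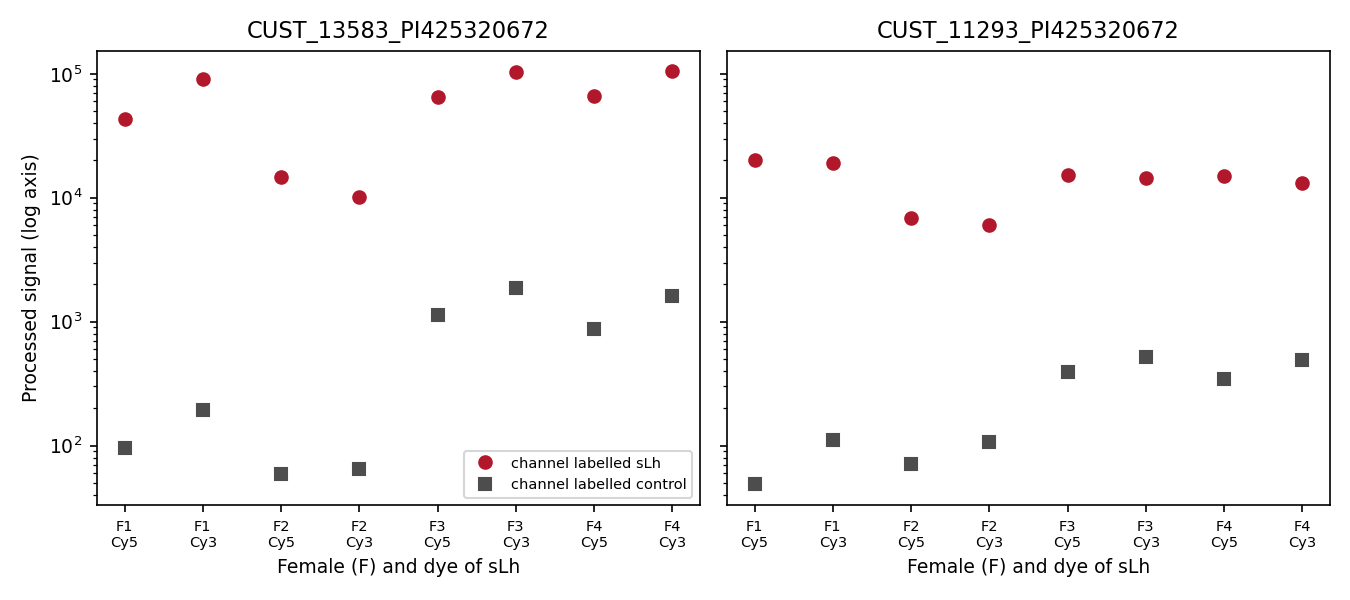
Processed signal (log axis) of the 2 members with the highest ratios, CUST_13583_PI425320672 and CUST_11293_PI425320672, in the channel labelled sLh (circles) and the channel labelled control (squares) on each of the 8 arrays, by female and dye of sLh. On every array the circle lies above the square, and the control signals of females 3 and 4 lie above those of females 1 and 2.

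Below these, the ratios of the first 15 members fell quickly. The member ranked 3 had log2 ratios of 3.57, 4.47 and 4.44 in the order of replicates above, but its control channel was above background on no array. The member ranked 4 had 3.29, 3.23 and 3.42 (mean 3.31 ± 0.10, SD, n = 3), with its control above background on 4 arrays. The member ranked 5 had 2.92, 3.68 and 3.49, with both channels above background on all 8 arrays. Of these, only the member ranked 4 had replicates within 0.5 of each other.

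The members ranked 6 to 8 had mean log2 ratios of 3.80 ± 1.14, 2.45 ± 0.22 and 2.72 ± 0.69 (SD, n = 3). The member ranked 6 had 4.96, 3.76 and 2.69, the same order of replicates as the measured ratios of the first and second members. The member ranked 7 had 2.64, 2.22 and 2.50, and the member ranked 8 had 2.14, 3.49 and 2.54. For the members ranked 9 to 15, the mean ranged from 2.14 to 3.46. The member ranked 15 owed its mean of 3.46 ± 2.10 mostly to female 2 (5.80, against 2.86 and 1.73), and its control was never above background. Of the first 15 members, 5 had their control above background on all 8 arrays.

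**Figure D3:**
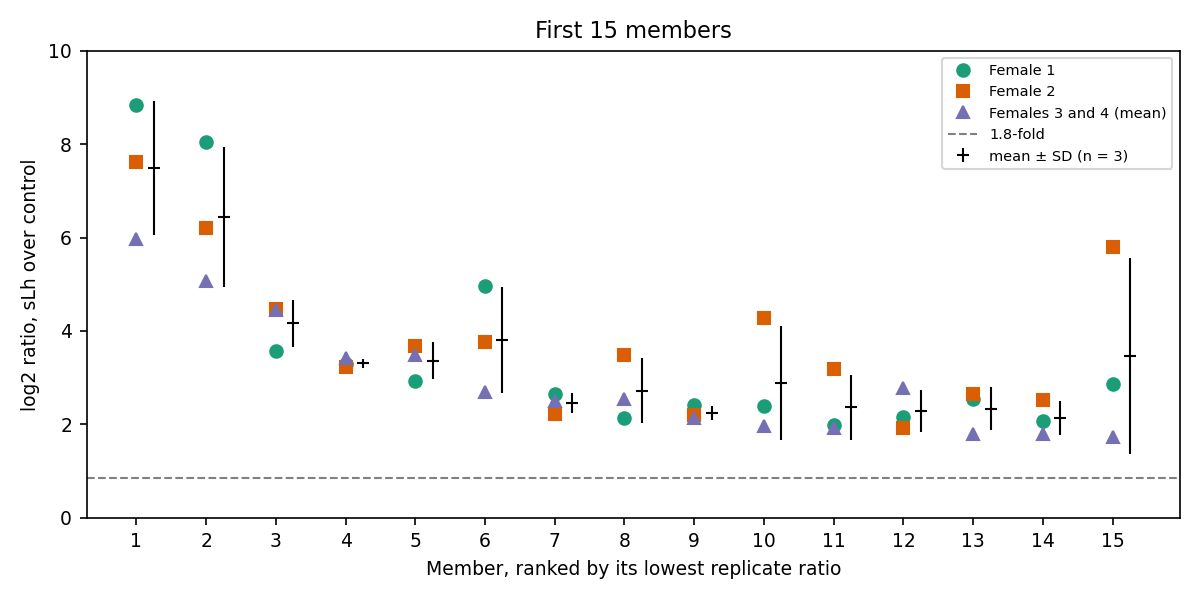
Log2 ratio of sLh over control of the first 15 members by replicate (female 1, female 2, females 3 and 4 averaged), with the mean ± SD (n = 3) beside each and the 1.8-fold threshold as a dashed line. The first and second members lie above 5 in every replicate, and the remainder of the 15 have their lowest ratio between 1.73 and 3.57.

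The 10 members with the brightest sLh channel were above background in both channels on all arrays, except for the second member. They included the first and second members, and the remaining 8 had ranks from 20 to 63. Apart from the first and second members, their mean ratios ranged from 1.23 to 2.16. The member ranked 55 had 1.35, 1.23 and 1.12, the smallest spread among these 10. The members ranked 43 and 44 were alike in every replicate, at 1.42 and 1.44 for female 1, 3.79 and 3.82 for female 2, and 1.23 and 1.22 for females 3 and 4. Their ratios differed by at most 0.0551 on any of the 8 arrays. Of all 5050 pairs of members, 4 had log2 ratios within 0.25 of each other on every array. The others were the members ranked 18 and 23, 58 and 59, and 95 and 99. The pairs were less alike in the log2 level of the control channel, centred on its array. The largest difference in that level was 0.161 for the members ranked 43 and 44 and 0.731 for 18 and 23. It was 3.04 for 95 and 99 and 8.57 for 58 and 59. Whether such a pair measures the same transcript cannot be said from the files used here.

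Many members differed several-fold between females. The highest minus the lowest of the 3 replicate ratios had a median of 1.14 and ranged from 0.03 to 4.66, being under 0.5 in 14 members and over 2 in 20. Female 2 gave the highest ratio in 46 members, females 3 and 4 in 28 and female 1 in 27. Female 1 gave the lowest in 42 members. On her array with sLh in Cy3, 63.4% of the members were above background in the sLh channel, against 98.0% to 100% on the other arrays. On her array with sLh in Cy5, 42.6% were above background in the control channel, against 55.4% to 91.1% on the other arrays. Over all spots, the lowest share of an array in the control channel was 51.9%. Both low shares of the members in female 1 were in the Cy3 channel. Whether this bears on the count was not tested. A replicate lay more than 1 above both others for female 2 in 19 members, for females 3 and 4 in 7 and for female 1 in 5. In 58 members no replicate lay more than 1 apart from both others.

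Members with a wide spread differed in which replicate stood apart. The member ranked 35 had 4.01, 1.34 and 6.0, and the member ranked 56 had 3.31, 1.12 and 5.70. The member ranked 72 had the same order, with 1.89, 0.99 and 4.84. These 3 were lowest in female 2, and their control channel was above background on 5, 2 and 2 arrays. The members ranked 18 and 23 were instead lowest in female 1, at 1.64 and 1.56, against 4.33 and 4.30 in female 2 and 3.85 and 3.93 in females 3 and 4. The member ranked 45 was lowest in females 3 and 4, at 1.20, against 4.11 and 3.80. These last 3 were above background in both channels on all 8 arrays. The member ranked 41 was highest in female 1, at 4.27, against 1.58 and 1.25, and its control was above background on 2 arrays. A single high value in female 2 was the most frequent pattern, as in the members ranked 15, 43 and 44 above.

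At the other end, 10 members had an SD under 0.15. The steadiest over the replicates was the member ranked 100, with 0.86, 0.87 and 0.89. The members ranked 79 and 93 had 0.94, 1.02 and 1.03, and 1.03, 0.88 and 1.01. Each of these values averages both dye orientations, and single arrays spread more widely. The members ranked 93 and 100 were above the threshold on 4 arrays each, those with sLh in Cy5. The member ranked 79 had 0.36 and 1.52 on the arrays of female 1. The members ranked 79, 93 and 100 are among those nearest to the threshold, where the rule keeps a probe only if no replicate falls below it. The 3 members just inside the threshold had a smallest ratio of 0.855, 0.858 and 0.859, and the 3 probes just outside it had 0.842, 0.842 and 0.841. One of those left out had 2.87, 2.41 and 0.84.

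The control channel of many members was dim. The sLh channel was above background on all 8 arrays in 64 members, the control channel in 43 (42.6%, against 63.9% of all probes tested). The control was above background on 4 to 7 arrays in 38 members and on fewer than 4 in 20. The median log2 signal of the members was 8.68 in the sLh channel and 6.64 in the control channel, against 8.47 and 8.48 over all probes tested. The rule asked for a bright sLh channel and a dimmer control, so that these levels are part of the choice of members. With the processed signals, the 50 members with the dimmer control channel had a median mean log2 ratio of 1.76, and the other 51 had 1.83. All of them had passed the same threshold. With the other processing given below, members not above background throughout kept their place less often.

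For 3 members the control channel was above background on no array, and a lower limit of the ratio was sought. The sLh mean, corrected with normexp and adjusted between arrays, was set against a control value. That value was the higher of the probe's own control signal and the dimmest signal that was above background on the array. In each of these members the own control signal was the higher. The result is therefore the ratio given by that correction, not a limit set by detection. It was 2.20-fold for the member ranked 15, 2.07-fold for the member ranked 3 and 1.10-fold for the member ranked 83. The sLh channel of the member ranked 83 was above background on 4 arrays. The processed signals of the same members gave 11.0-fold and 17.9-fold for the members ranked 15 and 3. The large ratios of such members rest on a control signal that was not measured above background.

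The size of the ratio, and with it membership, changed with the processing of the signals. With normexp (offset 50) and loess on the median spot signals in place of the processed signals, all 101 members had a ratio above 0 in every replicate, but 29 of them were above the threshold in all 3. The median of the members' mean ratios was 0.92 in place of 1.78. The offset adds a constant to both channels and therefore draws ratios of dim spots towards 0. Of the 43 members above background in both channels on all arrays, 24 kept their place (55.8%), and of the other 58 members 5 did (8.62%). The first and second members had 6.37 and 5.13. Of the first 15 members, 11 moved by more than the SD over their replicates, to values between 0.58 and 2.64, the member ranked 4 from 3.31 to 1.31 and the member ranked 6 from 3.80 to 1.81. The spot signal, the background correction and the loess step were changed together, and their parts were not tested.

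**Figure D4:**
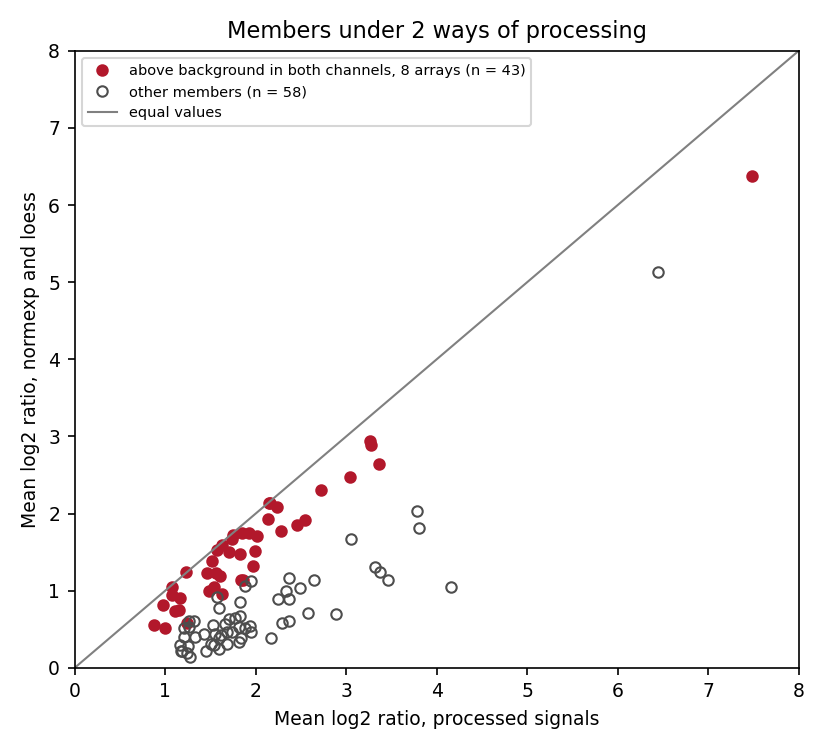
Mean log2 ratio over 3 replicates of each of the 101 members from the processed signals (horizontal axis) and after normexp and loess on the median spot signals (vertical axis), with the line of equal values. The 43 members above background in both channels on all 8 arrays (filled) lie nearer to the line than the other 58 (open).

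The 43 members above background in both channels on all arrays had median log2 ratios of 1.41, 2.14 and 1.56 in the same order of replicates. They were highest in female 2 in 23 cases, in females 3 and 4 in 11 and in female 1 in 9. Their mean ratios ranged from 0.87 to 7.48 with a median of 1.75. Of these 43, 39 were in the list that the authors deposited, against 19 of the other 58 members. The median control log2 signal was 8.51 for the members in the list and 5.09 for those not in it.

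A group of 20 members met the rule under each of 8 other ways of making the values. These were normexp with loess, centred arrays, females 3 and 4 as separate replicates, both channels above background on all arrays, outlier spots kept, saturated spots left out, and each dye orientation alone. Their mean log2 ratios ranged from 1.23 to 3.36 with a median of 2.14, and their lowest value on a single array was 0.88, which the choice by each orientation largely fixes. They were highest in female 2 in 11 cases, in females 3 and 4 in 5 and in female 1 in 4. The members ranked 5, 7 and 8 were among them, as were those ranked 14, 18, 20, 23, 43, 44, 45 and 55. The first member was not, since it dropped out when saturated spots were left out, and neither was the second, whose control was above background on 7 arrays. All 20 were in the deposited list, from which nothing is read, since it was selected from the same arrays.

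The spread between replicates was also looked at in each channel. With each channel centred on its array, the SD of a member's log2 level over the 3 replicates had a median of 0.598 in the control channel and 0.579 in the sLh channel, against 0.299 and 0.319 over all probes tested. The SD was larger in the control channel in 45 members (44.6%, against 46.6% of all probes tested). Among the 43 members above background throughout, the median SD was 0.646 for the control and 0.418 for sLh. The SD was larger in the control in 21 of these 43. Over the 9711 probes tested that were above background throughout, both median SDs were lower (0.265 for sLh). The SD was larger in the control in 46.8% of those probes. Whether the control varied more than sLh in the 43 members was not tested. The median SD of the members was thus higher than that of all probes tested in both channels. These levels make up the ratio that chose the members, so the difference is not read as a trait of them. In 83 members (82.2%), the lowest sLh level of the 3 replicates stood above the highest control level, which was so in 5.51% of all probes tested. Since the rule chose probes on the same contrast, nothing is read from that share.

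The dye swap gave a measure that the rule did not use itself, although the rule chose high ratios, on which the measure may depend. The dye effect of a probe was taken as 1 part in 2 of the difference between its ratios on the array with sLh in Cy5 and on the swapped array. It was tested over 18012 probes with limma and Benjamini-Hochberg adjustment (n = 3), and 0 members and 0 probes in all (0%) had an adjusted p under 0.05, the lowest adjusted p from limma being 0.0738. At an unadjusted p under 0.05 there were 44 members (43.6%) and 35.9% of all probes. The count of 0 changed under some settings. Without female 1, limma called 43 members and 6533 probes in all. Without female 2, or without females 3 and 4, it called 0 members and 0 probes. With females 3 and 4 as 2 replicates, which treats nearly the same values as independent, it called 44 and 6573. With normexp and loess it called 4 and 3598.

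The direction of the dye effect differed more. The dye effect was above 0 in 79 members (78.2%), against 50.5% of all probes tested. Its median was 0.19 in the members and 0.00 over all probes, and its median size was 0.253 against 0.192. It was above 0 in all 3 replicates in 54 members (53.5%, against 34.2% of all probes tested) and below 0 in all 3 in 9 (8.91%, against 29.9%). It was above 0 in 37 of the 43 members above background throughout, against 54.0% of all such probes. After normexp and loess, it was above 0 in 65 members, against 55.6% of all probes tested. Since each slide held 1 orientation, the dye and the slide cannot be told apart. The members were chosen for high ratios, and the probes set beside them were not. Whether other probes of like ratios share this direction was not tested, so it is not read as a trait of the members.

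**Figure D5:**
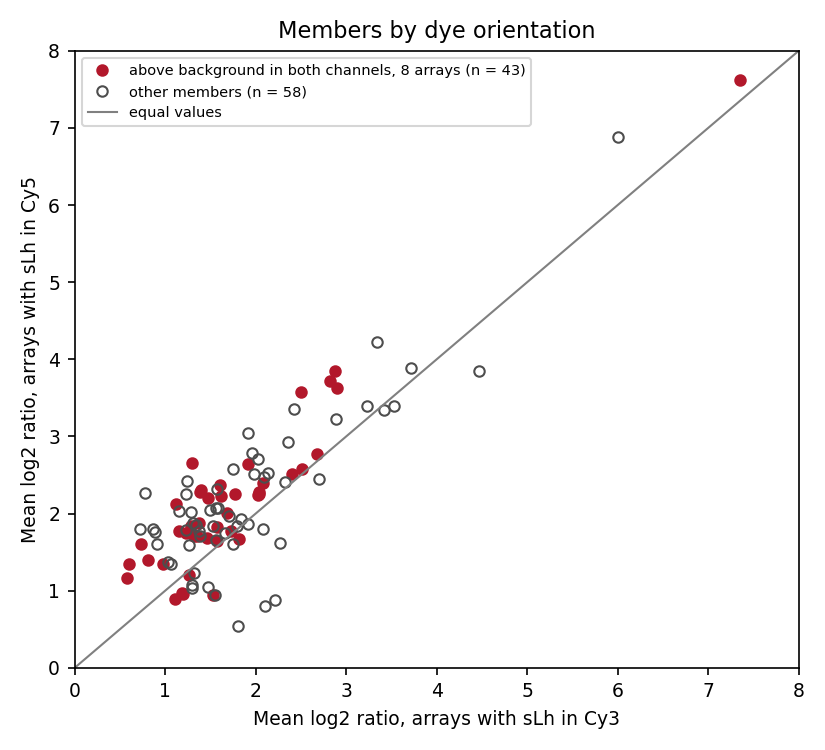
Mean log2 ratio of sLh over control of each of the 101 members on the arrays with sLh in Cy3 (horizontal axis) and with sLh in Cy5 (vertical axis), each over 3 replicates, with the line of equal values. Filled points are the 43 members above background in both channels on all 8 arrays and open points the other 58, and 79 of the 101 points lie above the line.

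The mean dye effect did not turn the mean ratio of any member, for which the rule left little room. It was larger than the mean ratio in 0 members and larger than 1 part in 3 of it in 10. In female 1 alone, the dye effect was larger in size than the ratio for the members ranked 87 and 83. It was -1.21 against a ratio of 1.11 for the former, and -1.18 against 0.917 for the latter. The median log2 ratio of the members was 1.83, 2.05, 1.87 and 1.88 for females 1 to 4 with sLh in Cy5. It was 1.48, 1.70, 1.40 and 1.48 with sLh in Cy3, lower in each female, with females 3 and 4 counting as 1 replicate. The numbers of members above the threshold were 87, 97, 94 and 95 on the former arrays and 79, 90, 89 and 86 on the latter. Every replicate ratio averaged both orientations. With the rule applied to each orientation alone, 82 of the 101 members met it where sLh was in Cy5, as did 65 where the dyes were swapped.

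The systematic names of the members begin with Omy in 93 cases and with Ssa in 8. These shares were 92.1% and 7.92%, against 85.3% and 14.7% of all probes tested. All 101 systematic names were different. For the contrast of sLh with control over all probes tested, limma gave 0 probes with an adjusted p under 0.05 and 963 with an unadjusted p under 0.05 (n = 3), and the methods' t-test gave 0 and 732. At the threshold of the paper's methods (above 1.8-fold and p under 0.01), limma selected 215 probes, 132 of them higher with sLh, and the methods' t-test selected 36 in all.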

How the data were processed

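The authors hybridised the arrays and deposited the scanner output, read with Agilent Feature Extraction (version 10.7.3.1 per the labels), which gives the intensity of each spot per dye, both as a median and processed, that is corrected for background and dye. Of a deposited list of selected probes, which holds log2 values by the authors, only membership and sign were used. A separate deposited table with 8 columns of processed values was not used, because neither its unit nor the females of its columns are stated.

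Control spots (1417 of 44925) and outlier spots (7 to 916 per array) were left out. Processed signals gave log2 ratios, with the sign set by the dye labels, which were averaged over the 2 spots of a probe and the 2 arrays of a female. A probe was above background on an array if at least 1 spot was. Between 44.4% and 83.9% of spots were well above background in the sLh channel and between 51.9% and 83.4% in the control channel. The number of replicates limits the precision, and each p-value sets a mean against the spread over the replicates used only.

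Models were fitted with limma (3.58.1, under R 4.3.3) after tests on simulated data, and plots were drawn with matplotlib (3.10.9). Named members were the 15 with the highest smallest ratio, the 10 with the brightest sLh channel and those next to the threshold, and others were named after their values were seen. The planned gene lists could not be matched. Members and lists were chosen with earlier results of these data known. Alternatives covered background correction, centring, filters, threshold, dye orientation, females 3 and 4, and each replicate left out.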

Additional observations from a re-analysis of the deposited data

Results flagged for a closer look

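Of 27 measures of the members that were compared over the 8 arrays, 2 had an array far from the others, and chance alone marks about 1 in 20 such comparisons. When female 1 was hybridised with sLh in Cy3, 63.4% of the members were above background in the sLh channel, against 98.0% to 100% on the other 7 arrays. This array also gave the fewest members above the threshold (79). Over all spots, the lowest share of an array above background in the sLh channel was 44.4%, against a median of 81.4%. The low share is therefore not read as particular to the members. For the member ranked 12, the log2 ratio was 3.83 for female 4 with sLh in Cy5, against 1.82 to 2.65 on the other 7 arrays. Its control channel was above background on 3 arrays.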

How the results depend on the processing

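Of the 101 members, the number became 30 with normexp and loess (29 of them members), 43 with both channels above background on all arrays, 215 at 1.5-fold and 168 with the arrays that had sLh in Cy5 alone (82 of them members). It was 282 to 353 when a replicate was left out (353 without female 1, 282 without female 2, 291 without females 3 and 4), since the rule then asks for fewer replicates. It was 69 to 150 under the other settings, which were centring, females 3 and 4 apart, either channel or no filter on dim probes, outlier or saturated spots, 2-fold, sLh in Cy3 alone (150, of which 65 were members) and, chosen after seeing the data, both spots above background (99). For the dye effect, limma called 0 members, 4 with normexp and loess (3598 probes in all) and 44 with females 3 and 4 as 2 replicates (6573), and 0 to 43 with a replicate left out (43 without female 1, with 6533 in all). The threshold of the methods selected 215 probes, 36 with the methods' t-test, 82 with normexp and loess and 467 with females 3 and 4 as 2 replicates. Of 161 values of the named members, 15 moved by more than their SD and 0 changed sign. With a replicate left out, or females 3 and 4 as 2 replicates, a mean cannot move by more than that SD. Nor can it change sign there, since every replicate of a member lay above the threshold. The moves came from normexp and loess (11, all among the first 15 members) and from single dye orientations. Each ratio pairs both treatments of a female on 1 array. In 58 members the control channel was not above background on all 8 arrays, so their ratios rest in part on control signals not above background. Where no cause is given above, the cause was not tested.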
